A study of Mus musculus with 46 samples.

Results

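The genes described here are the nuclear-encoded subunits of the mitochondrial respiratory chain, chosen by symbol: the Nduf subunits of NADH dehydrogenase, the subunits of succinate dehydrogenase (Sdha, Sdhb, Sdhc, Sdhd), the Uqcr subunits of cytochrome bc1 and the Cox5 to Cox8 subunits of cytochrome c oxidase. This rule took 64 of the 37108 gene symbols measured. Of these, 36 belong to complex I, 4 to complex II, 8 to complex III and 16 to complex IV, where Ndufa4 was counted because it is a subunit of cytochrome c oxidase. The rule left out Cox4i1, Cox4i2 and the cytochrome c1 gene Cyc1, which were listed apart as other subunits. In the time course 61 of the 64 reached 1 FPKM (fragments per kilobase of transcript, scaled to the mapped fragments of the library) in at least 2 libraries and were tested. The remaining 3, Cox6a2, Cox8b and Cox8c, are muscle or testis forms.

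The respiratory chain passes electrons from NADH, at complex I, and from succinate, at complex II, through ubiquinone to complex III, then through cytochrome c to complex IV, which reduces oxygen. Complexes I, III and IV pump protons, and their catalytic cores hold subunits encoded in mitochondrial DNA (mtDNA), whereas every subunit of complex II comes from the nucleus. Several complex IV subunits exist as pairs of genes, with a form found in most tissues and a form of heart, skeletal muscle and brown fat or of testis. Pluripotent cells are known for a strong reliance on glycolysis, and reprogramming of fibroblasts remodels their mitochondria.

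RNA-seq followed mouse embryonic fibroblasts (MEF) that were infected with retroviruses carrying Oct4 and either native Nanog (NanogWT, labelled Nanog+Oct4) or Nanog fused at its N terminus to the BRG1 interacting domain of SS18, a BAF complex subunit (NanogBiD, labelled NanogN70+Oct4). Day 0 (D0) fell after the infections, so cells at D0 already carried the viruses, and the cells were then grown in the reprogramming medium iCD3. The study's methods have this medium replaced by N2B27 with 2iL, the medium of the stem cells, after the first week or at a set time, and do not say which of the libraries from D8 on came after that change. Cells were collected as whole cultures on 8 days, D0, D1 and D3, then D5, D7 and D8, and last D10 and D12, in 2 libraries per combination and day, with 1 library of NanogBiD at D8, which made 31 libraries. Further libraries came from 2 MEF samples, 1 sample of OG2 mouse embryonic stem cells (mES) and 12 samples of picked clones of induced pluripotent stem cells (iPSC), 6 per combination. MEF came from embryos of Oct4-GFP reporter (OG2) males and 129 females, and iPSC and mES were kept without feeder cells in medium with kinase inhibitors and LIF. The clones are labelled iPSC1 or iPSC2, without a statement of what these names mean. Column labels carry what reads as a passage number, later in iPSC1 than in iPSC2 and MEF and latest in mES. Passage and these groups therefore cannot be told apart. The labels do not say whether the replicates were separate cultures, so p-values measure the spread between libraries, which may be technical. In these bulk samples, fewer cells of a type and less RNA per cell cannot be told apart.

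The promoters of 6 of these genes are shown first: those of the succinate dehydrogenase subunits Sdha and Sdhd, and of a pair of tissue forms with their common counterparts. Sdhb is not shown, although it differed between the combinations on 4 days by the test described below, and Sdhd on 1. Each is the 250 bases before a RefSeq transcription start (GRCm38.p6), 5′ to 3′ on the strand of the gene. The start used for Cox7a2 lies inside the span given for that gene, which runs from 79755241 to 79771422. Capitals mark matches, on either strand, to GCGCNTGCGC, the site of nuclear respiratory factor 1 (NRF1), or to CCGGAAG, the core of the site of GABPA, an ETS factor known for respiratory chain promoters. Sdha lies at chr13:74350241-74350490 (minus strand), Sdhd at chr9:50603850-50604099 (minus), Cox7a1 at chr7:30183921-30184170 (plus), Cox7a2 at chr9:79759854-79760103 (minus), Cox6b2 at chr7:4753095-4753344 (minus) and Cox6b1 at chr7:30626115-30626364 (minus).
Sdha: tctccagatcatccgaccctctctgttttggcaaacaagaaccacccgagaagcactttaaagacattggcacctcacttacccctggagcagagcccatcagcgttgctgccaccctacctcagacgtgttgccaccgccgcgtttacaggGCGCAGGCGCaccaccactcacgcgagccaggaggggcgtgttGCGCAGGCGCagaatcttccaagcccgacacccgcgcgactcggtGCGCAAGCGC
Sdhd: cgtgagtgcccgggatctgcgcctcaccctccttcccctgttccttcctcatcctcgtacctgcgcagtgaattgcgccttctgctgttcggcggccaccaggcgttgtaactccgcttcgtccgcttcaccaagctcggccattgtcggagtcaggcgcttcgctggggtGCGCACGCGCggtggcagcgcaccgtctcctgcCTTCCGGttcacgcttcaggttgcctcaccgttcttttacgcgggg
Cox7a1: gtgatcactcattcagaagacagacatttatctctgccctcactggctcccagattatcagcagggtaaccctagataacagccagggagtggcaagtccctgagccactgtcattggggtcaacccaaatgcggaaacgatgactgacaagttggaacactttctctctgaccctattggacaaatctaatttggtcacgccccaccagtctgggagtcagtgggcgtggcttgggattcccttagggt
Cox7a2: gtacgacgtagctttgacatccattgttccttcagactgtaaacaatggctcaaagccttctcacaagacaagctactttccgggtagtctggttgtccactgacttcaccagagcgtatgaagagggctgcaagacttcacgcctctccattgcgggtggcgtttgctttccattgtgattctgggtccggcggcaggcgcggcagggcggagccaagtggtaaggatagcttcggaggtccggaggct
Cox6b2: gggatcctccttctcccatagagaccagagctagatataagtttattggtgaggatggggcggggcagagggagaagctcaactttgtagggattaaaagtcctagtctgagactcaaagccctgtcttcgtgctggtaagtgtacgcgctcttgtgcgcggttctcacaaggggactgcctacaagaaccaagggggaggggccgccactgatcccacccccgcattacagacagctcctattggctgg
Cox6b1: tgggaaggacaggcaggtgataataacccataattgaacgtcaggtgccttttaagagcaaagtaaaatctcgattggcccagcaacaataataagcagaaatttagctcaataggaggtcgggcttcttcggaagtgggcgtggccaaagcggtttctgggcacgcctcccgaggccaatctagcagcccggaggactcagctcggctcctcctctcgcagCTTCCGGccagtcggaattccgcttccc

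The Sdha window held 3 NRF1 matches and 21 CpG dinucleotides, and the Sdhd window 1 match to each motif and 27 CpG. No match to either motif was found for Sdhb or Sdhc, so the windows shown do not stand for complex II as a whole. The windows of the tissue forms held 4 CpG in Cox7a1 and 8 in Cox6b2, beside 14 in each of Cox7a2 and Cox6b1 and medians of 14 over the windows of tested genes and 6 over all RefSeq windows. The last of these had 1 GABPA match, and the windows of Cox7a1, Cox7a2 and Cox6b2 held neither motif. RefSeq gave 55 promoters for 53 of the 64 genes. The NRF1 motif was in 18.2% of these windows (10 windows), in 6.86% of the windows of all tested genes and in 3.74% of all RefSeq windows. The GABPA core was in 14.5% of the windows, against 11.8% of those of tested genes and 6.91% of all. The motif AAGATGGC of the factor YY1, also searched on both strands, was in none of the 55 windows and in 1.8% of those of tested genes. These matches are a description of letters in a fixed window.

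Libraries were not alike in depth or in these genes. The steps between low FPKM values of a gene put the depth of the 15 NanogBiD libraries at 0.830 to 1.13 and that of the 10 NanogWT libraries from D0 to D7 at 0.893 to 1.08 on a common scale, but that of the 6 NanogWT libraries from D8 to D12 at 1.90 to 3.26. The NanogWT libraries of D0 stood apart from each other: their summed FPKM over the 64 genes was 3916 in replicate 1 and 1963 in replicate 2. The NanogBiD libraries of D3 summed to 4127 and 2589. The 64 genes are short, with a median transcript length of 758 bases against 2838 over all genes, and the 38 tested genes under 1000 bases had a median absolute log2 difference between replicates of 0.288, against 0.184 in the 23 longer ones and 0.186 over all genes tested. The samples were checked against marker genes: the summed FPKM of 10 pluripotency markers was 3719 in mES, 1257 to 2259 in NanogBiD at D12 and 163 to 226 in NanogWT at D12, and that of 10 fibroblast markers was 308 to 451 in NanogBiD and 3009 to 3438 in NanogWT at D12.

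By complex, the summed level in complexes I, III and IV was higher in mES than in any time-course or MEF library. Complex I summed to 988 and 1287 FPKM in the MEF libraries and to 2135 in mES, which was 1.88 times the MEF mean. For complex III the mES level was 2.25 times and for complex IV 2.44 times the MEF mean, and for complex II, the succinate dehydrogenase that also belongs to the citric acid cycle, 1.54 times. At D5 the NanogBiD means stood at 1.21 (complex I), 1.48 (II), 1.40 (III) and 1.5 (IV) times the MEF mean, and the NanogWT means at 0.894, 0.997, 1.03 and 0.959 times. At D12 the NanogBiD means were 1.07, 1.32, 1.15 and 1.17 times and the NanogWT means 1.10, 0.961, 1.06 and 1.25 times the MEF mean. The sums of every complex were apart between the combinations at D5, and at D12 only those of complex II were.

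Complex II was the only complex whose sums did not overlap between the combinations on each day from D3 to D12. The D3 libraries summed to 244 and 316 FPKM in NanogBiD against 180 and 193 in NanogWT, and those of D5 to 285 and 318 against 189 and 219. By D7 the sums were 258 and 324 FPKM against 192 and 202, with 302 against 193 and 203 on D8. The last days gave 296 and 314 FPKM against 203 and 211 (D10), then 252 and 288 against 184 and 208 (D12). The lowest NanogBiD library from D3 on was therefore above the highest NanogWT library of the same days, and the NanogWT sums lay in the range of the MEF libraries or just under it, 189 and 219 FPKM. At D0 the combinations overlapped, at 258 and 270 FPKM in NanogBiD and 199 and 278 in NanogWT. After rescaling each library to a common total (TPM), the complex II sums of NanogBiD were above those of NanogWT at D0 and D1 as well, with 624 and 648 TPM against 490 and 601 at D0. Complex III sums were apart from D3 to D8, complex IV sums at D3 and D5 and complex I sums at D5 and D8, each with NanogBiD higher. At D10 the order was reversed in both of the latter, with 1171 and 1286 FPKM in NanogBiD against 1371 and 1384 in NanogWT for complex I, and 893 and 1011 against 1215 in each NanogWT library for complex IV.

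**Figure D1:**
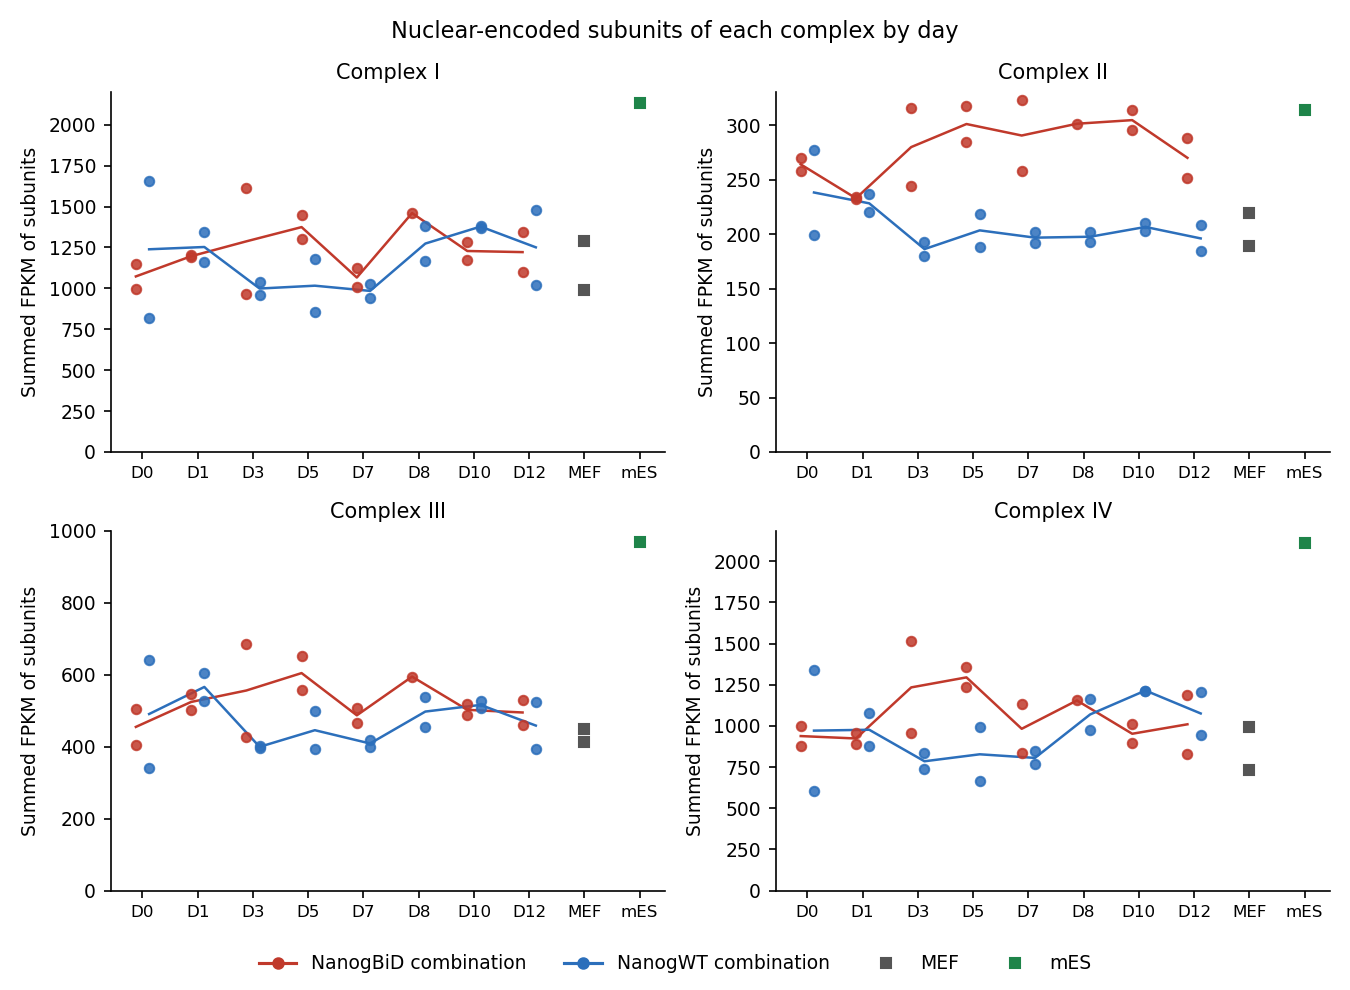
Summed FPKM of the tested and untested subunits of each complex (y axis, linear from 0) by day (x axis), with 1 point per library and lines through the means of NanogBiD (red) and NanogWT (blue), and MEF and mES at the right. Complex II separates the combinations from D3 to D12, mES is highest in complexes I, III and IV, and the NanogWT libraries of D0 lie far apart.

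Between the combinations, the subunits shifted upward in NanogBiD at D3 and D5 and split by D10. Each gene was tested by limma on log2(FPKM + 1), with an adjusted p under 0.05 over all 16842 genes as the call, and differences are given on that log2 scale as NanogBiD minus NanogWT, with the standard error (SE). At D0 none of the 61 subunits was called, beside 1.91% of all genes, and 4 had an unadjusted p under 0.05. At D1 none was called, beside 3.27% of all genes, and none had an unadjusted p under 0.05. At D3, 4 subunits were called higher, beside 4.25% of all genes, and none lower, beside 5.9%. At D5, 7 were called higher, beside 9.05%, and none lower, beside 7.31%. At D7, 6 were called higher, beside 17.3%, and none lower, beside 11.1%.

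The shares of subunits called at D3 and D5 were near the background of all genes and that at D7 was below it, and the wider pattern was a small shift of most subunits. The median difference of the 61 subunits was 0.38 at D3, when 56 were positive, and 0.51 at D5, when 58 were positive, against medians of 0.04 and 0.08 over all genes. At D3, 32 of the 61 had both NanogBiD libraries above both NanogWT libraries, beside 25.4% of all genes, and none had them below, beside 20.1%. At D5 this held for 45, beside 38.4%, and none lay below, beside 24.9%. At D7 the median was 0.17 against 0.08 over all genes, with 23 subunits above, beside 36.4%, and 4 below, beside 24.1%. Single libraries decided many of the calls. At D3 the count was 2 without NanogBiD replicate 1, 10 without NanogBiD replicate 2, 1 without NanogWT replicate 1 and 2 without NanogWT replicate 2. At D5 it was 1 without NanogBiD replicate 1, 3 without NanogBiD replicate 2 and 0 without NanogWT replicate 1, and at D7 it was 10 without NanogBiD replicate 1, 2 without NanogBiD replicate 2 and 3 without NanogWT replicate 2.

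In complex II, 2 of the 4 subunits were called higher at D3, 2 at D5 and 3 at D7. Sdha, the flavoprotein that oxidises succinate, had 37.7 and 38.4 FPKM in NanogBiD and 37.9 and 37.3 in NanogWT at D0. It had 53.9 and 54.7 FPKM against 32.6 and 39.9 at D5, 60.4 and 56.1 against 40.3 and 36.3 at D7, 74.7 and 68.2 against 47.3 and 47.3 at D10, and 71.9 and 64.3 against 46.0 and 38.1 at D12. The libraries overlapped at D0 and were apart from D5 on, and mES had 83.2 FPKM beside 49.0 and 47.7 in MEF. At D5 the difference was 0.58 (SE 0.14, adjusted p = 0.0053), and the D7 value was 0.59 (SE 0.14, adjusted p = 0.0024). At D10 it was 0.58 (SE 0.14, adjusted p = 0.0011), and the D12 value was 0.69 (SE 0.14, adjusted p = 0.00029). The call at D5 was lost without NanogWT replicate 1, and those at the later days held without any single library.

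Sdhb, the iron-sulphur subunit that takes the electrons onward, had 71.3 and 64.7 FPKM in NanogBiD and 36.7 and 39.2 in NanogWT at D3. It had 79.9 and 66.1 against 46.3 and 45.8 FPKM at D5 and 59.5 and 52.7 against 33.9 and 34.9 at D10. The groups were apart on these days, with a difference at D3 of 0.82 (SE 0.16, adjusted p = 0.0019). The D5 difference was 0.65 (SE 0.16, adjusted p = 0.0080) and the D10 difference 0.69 (SE 0.16, adjusted p = 0.0012). Its level was already 76.6 and 74.6 FPKM in NanogBiD and 60.4 and 54.5 in NanogWT at D0, and in NanogWT it was under 48 FPKM in every library from D3 on. The D5 call was lost without NanogBiD replicate 1 or NanogWT replicate 1, and the D7 call without NanogBiD replicate 2 or NanogWT replicate 1. At D12 the difference of 0.36 (SE 0.16) missed the threshold (adjusted p = 0.066).

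The membrane anchors that bind ubiquinone, Sdhc and Sdhd, were called on D3 and D10 and on D7. Sdhc was higher in NanogBiD at D3, by 0.57 (SE 0.18, adjusted p = 0.045), and at D10, by 0.54 (SE 0.18, adjusted p = 0.014). Sdhd was higher at D7, by 0.67 (SE 0.24, adjusted p = 0.042). The D3 call of Sdhc was lost in 3 of the 4 fits that left out 1 library of the day and the D10 call in 2 of 4, and that of Sdhd without NanogBiD replicate 2 or either NanogWT library. At D5 their differences of 0.43 (SE 0.18) and 0.62 (SE 0.24) missed the threshold, with adjusted p of 0.11 and 0.086, as did 0.28 and 0.53 at D12, with adjusted p of 0.20 and 0.068.

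In complex III, Uqcrc1 was first called at D5, Uqcrc2 at D7 and Uqcrfs1 at D10. Uqcrc2 and Uqcrc1 form the matrix side of cytochrome bc1, and Uqcrfs1 is its Rieske iron-sulphur protein. Uqcrc2 had 62.4 and 52.2 FPKM in NanogBiD and 58.6 and 47.1 in NanogWT at D0, and 72.0 and 66.9 against 37.5 and 35.5 at D12. The groups overlapped at D0 and differed at D7 by 0.54 (SE 0.13, adjusted p = 0.0035). At D10 the difference was 0.90 (SE 0.13, adjusted p = 8.1e-06). It was 0.91 (SE 0.13, adjusted p = 8.3e-06) at D12, when NanogBiD stood near the 68.0 FPKM of mES and NanogWT below the 40.9 and 41.6 of MEF. Uqcrc2 overlaps the gene Pdzd9, and the strand setting of the counting is not given in the sources used here, so reads of the pair could not be separated. The same limit holds for the 18 subunits that overlap another RefSeq gene, among them Sdhc, Ndufs1, Ndufa9, Ndufa10, Ndufa1, Uqcr10, Cox7a2 and Cox7c. Uqcrc1 had 82.4 and 75.6 FPKM in NanogBiD and 57.0 and 53.2 in NanogWT at D5 and was called on each of D5, D7, D10 and D12, by 0.51 to 0.57, but on each of these days leaving out at least 2 of the 4 libraries, 1 at a time, ended the call. Uqcrfs1 was called at D10, by 0.73 (SE 0.17, adjusted p = 0.0012), and at D12, by 0.61 (SE 0.17, adjusted p = 0.0057), where it was lost without NanogWT replicate 2.

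**Figure D2:**
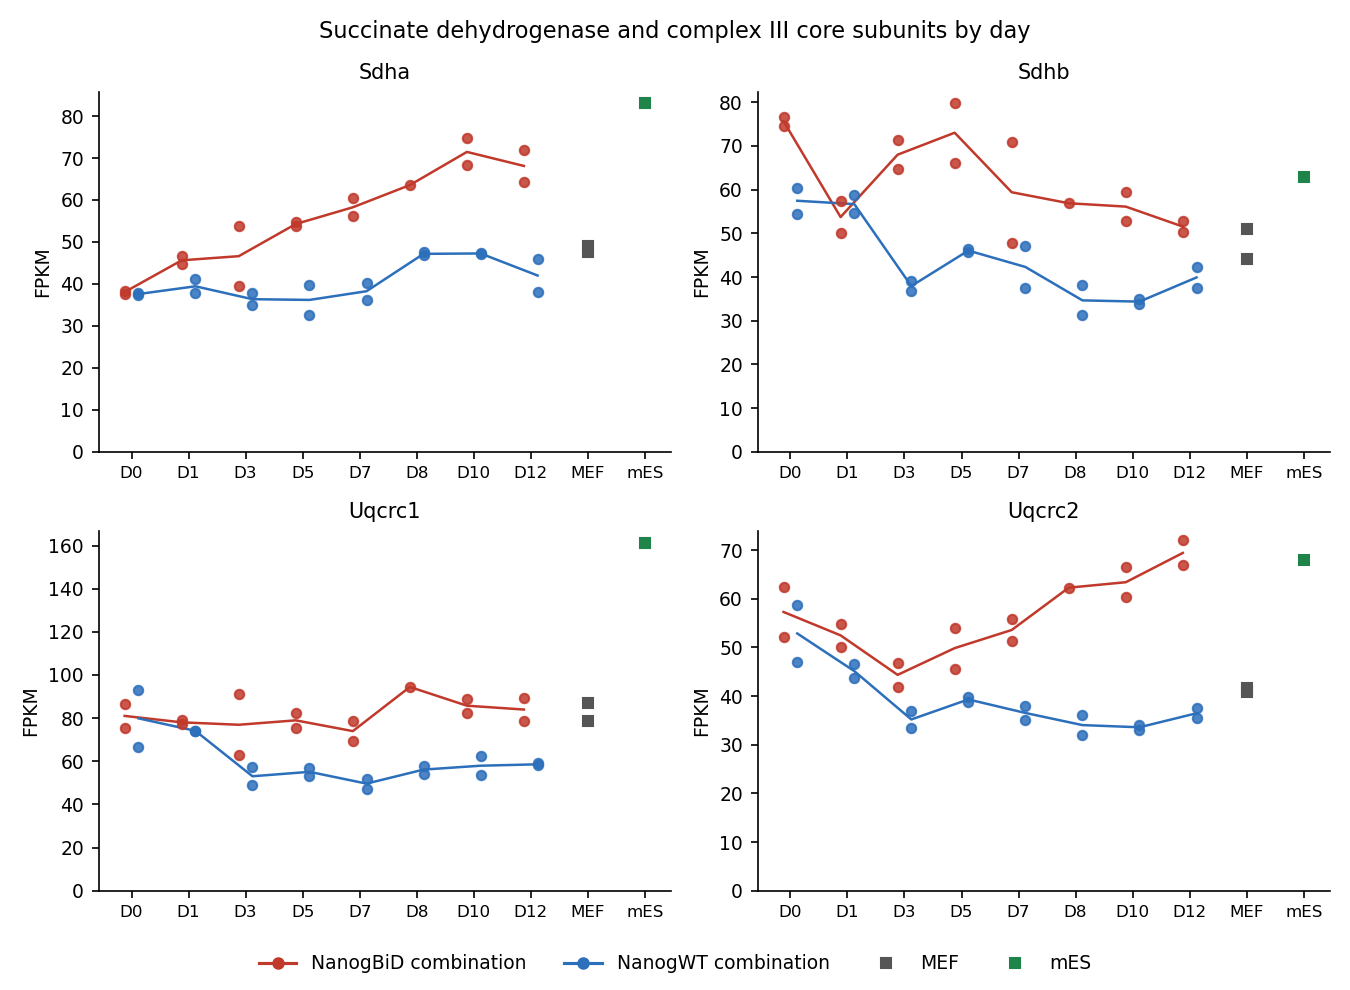
FPKM (y axis, linear from 0) of Sdha, Sdhb, Uqcrc1 and Uqcrc2 by day, with 1 point per library and lines through the means of NanogBiD (red) and NanogWT (blue), and MEF and mES at the right. Sdha climbs in NanogBiD from 37.7 and 38.4 FPKM at D0 to 71.9 and 64.3 at D12, and Uqcrc2 parts from D3 on while NanogWT stays under 40 FPKM.

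Among the other subunits called at D3 and D5, Ndufb2, an accessory subunit of the complex I membrane arm, had the largest difference at D3. It had 30.1 and 35.8 FPKM in NanogBiD and 13.3 and 15.4 in NanogWT, a difference of 1.14 (SE 0.25, adjusted p = 0.0054). Ndufv1, which binds the flavin that accepts electrons from NADH, had 52.2 and 49.9 FPKM in NanogBiD and 25.5 and 33.8 in NanogWT at D5, a difference of 0.78 (SE 0.19, adjusted p = 0.0086). Ndufa8 differed by 0.89 (SE 0.27, adjusted p = 0.030) and Ndufa9 by 0.57 (SE 0.16, adjusted p = 0.016) at D5, and both are accessory subunits of complex I. The Ndufb2 call was lost without NanogWT replicate 1, that of Ndufv1 without NanogBiD replicate 1 or NanogWT replicate 1, and those of Ndufa8 and Ndufa9 without either NanogBiD library or NanogWT replicate 1. Over the 7 days tested in both combinations, 23 of the 61 subunits were called at least once and 38 never. The share of all genes called at least once was not counted. At D10 alone, 32.4% of all genes were called higher and 23.1% lower. Sdha, Sdhb and Uqcrc1 were called on 4 days, and Ndufa9, Uqcrc2, Ndufv1 and Ndufs1 on 3.

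At D10 the subunits parted in both directions. There 12 were called higher in NanogBiD, beside 32.4% of all genes, and 6 lower, beside 23.1%, with a median of -0.04 against 0.10 over all genes. Without NanogWT replicate 1 these were 7 and 1, and without NanogBiD replicate 2 they were 9 and 1. Both NanogBiD libraries lay above both NanogWT libraries in 19 subunits, beside 45.2% of all genes, and below in 25, beside 35.1%. By complex, 3 of 4 subunits of complex II were called, all higher, with a median of 0.56. In complex III 3 were called higher and 2 lower, with a median of -0.35, and in complex IV 2 higher and 1 lower, with a median of -0.33. Complex I had 4 called higher and 3 lower, with a median of -0.05. The called shares at D10 were below the background in both directions.

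The largest rises at D10 were those of Cox5a, at 1.05 (SE 0.31, adjusted p = 0.0078), and Uqcrc2, Uqcrfs1, Ndufs1 and Sdhb. Ndufs1, the large iron-sulphur subunit of complex I, had 31.01 and 32.8 FPKM in NanogBiD and 17.7 and 20.03 in NanogWT, a difference of 0.73 (SE 0.13, adjusted p = 7.3e-05). The largest falls were those of 3 small complex I subunits, Ndufa3, Ndufa1 and Ndufa5, and of Cox8a and Uqcrb, small subunits of complexes IV and III. Ndufa3 had 27.4 and 27.4 FPKM in NanogBiD and 71.6 and 71.8 in NanogWT, a difference of -1.36 (SE 0.40, adjusted p = 0.0074). Ndufa1 differed by -1.14 (SE 0.43, adjusted p = 0.028), Ndufa5 by -1.04 (SE 0.39, adjusted p = 0.028), Cox8a by -0.92 (SE 0.33, adjusted p = 0.022) and Uqcrb by -0.85 (SE 0.30, adjusted p = 0.022). The call of Cox5a was lost without NanogBiD replicate 1 or NanogWT replicate 1, and those of the 5 falls each in at least 2 of the 4 fits that left out 1 library, NanogWT replicate 1 and NanogBiD replicate 2 among them. The subunits that fell were short: over the 61 subunits, Spearman's rho of the D10 difference was 0.53 with transcript length and -0.27 with GC content, against -0.01 and -0.05 over all genes with both values, as a description across genes. The rho with length was also 0.49 at D1, when no subunit was called, and 0.40 at D12. It was -0.09 at D0, -0.19 at D3, -0.13 at D5 and 0.12 at D7, so a trend with length was not particular to D10. The NanogWT libraries of D10 were also among the deeper ones, and the part of length and depth in the D10 differences was not tested.

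At D12, 10 subunits were called higher, beside 31.6% of all genes, and 1 lower, beside 19.1%, with a median of 0.10 against 0.17 over all genes. Both NanogBiD libraries lay above both NanogWT libraries in 20 subunits, beside 45.9%, and below in 10, beside 29.2%. Ndufa5 was the subunit called lower, by -0.95 (SE 0.39, adjusted p = 0.048), with 19.0 and 19.7 FPKM in NanogBiD and 49.4 and 29.6 in NanogWT. Without NanogBiD replicate 1 the calls at D12 were 5 higher and 1 lower. The split of calls depended on the scaling, with 10 higher and 3 lower after rescaling to a common total, 15 and 4 after quantile normalization and 13 and 8 after removing trends in length and GC. Cox5a, a nuclear subunit on the matrix side of complex IV, had 170 and 115 FPKM in NanogBiD and 63.5 and 59.4 in NanogWT at D12, a difference of 1.18 (SE 0.31, adjusted p = 0.0039). This call was lost without NanogBiD replicate 1, and that of Ndufa5 without either NanogBiD library or NanogWT replicate 1. The D0 levels of Cox5a overlapped, with 74.3 and 71.5 FPKM in NanogBiD and 111 and 42.8 in NanogWT, and mES had 269 FPKM.

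**Figure D3:**
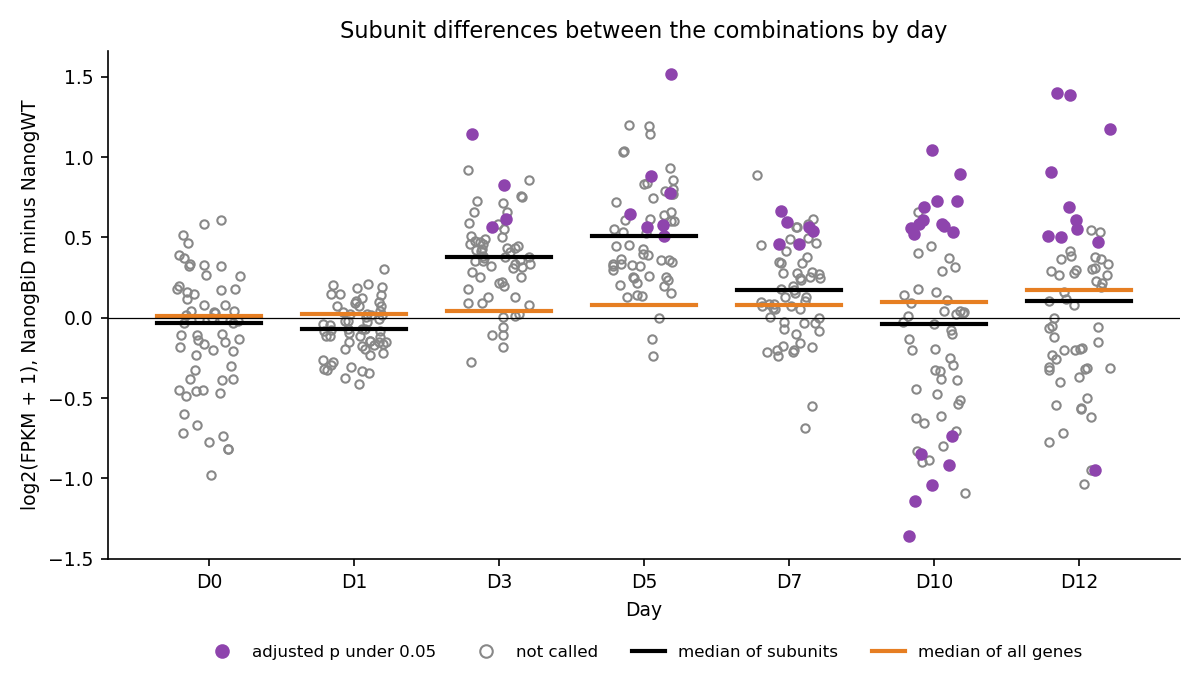
Difference of each of the 61 tested subunits (1 point each) between NanogBiD and NanogWT, in log2(FPKM + 1) (y axis), by day (x axis), with called subunits filled, the median of the subunits as a black bar and that of all genes as an orange bar. The subunit median rises to 0.38 at D3 and 0.51 at D5 and is -0.04 at D10, when called subunits lie on both sides of 0.

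Within each combination, few subunits changed by D7 or D12 relative to D0, and both contrasts of a combination share its D0 libraries. In NanogBiD at D7, 3 subunits rose, beside 31.2% of all genes, and 1 fell, beside 12.6%. At D12, 9 rose, beside 42.8%, and 4 fell, beside 18.9%, with a median of 0.23 against 0.34 over all genes. Without NanogBiD D0 replicate 2 these were 3 and 3, and without NanogBiD D12 replicate 1 they were 4 and 4. The D7 counts became 3 and 6 without NanogBiD D7 replicate 2. Sdha rose from D0 to D12 by 0.82 (SE 0.14, adjusted p = 3.0e-05), and Ndufs6 and Ndufa6, accessory subunits of complex I, by 1.30 (SE 0.52, adjusted p = 0.038) and 1.09 (SE 0.32, adjusted p = 0.0061). The rises of Ndufs6 and Ndufa6 were lost without NanogBiD D12 replicate 1 or D0 replicate 2, and that of Sdha was not lost without any single library. Ndufb2 fell by 0.96 (SE 0.25, adjusted p = 0.0027), Ndufs8, an iron-sulphur subunit of complex I, by 0.79 (SE 0.19, adjusted p = 0.0013), Ndufc1 by 0.78 (SE 0.30, adjusted p = 0.029) and Sdhb by 0.54 (SE 0.16, adjusted p = 0.0062).

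In NanogWT at D7 none rose by limma, beside 25.5% of all genes, and 5 fell, beside 13.2%, with a median of -0.20 against 0.12 over all genes. These were Ndufb2, by 0.69 (SE 0.25), Uqcrc1, by 0.66 (SE 0.16), Ndufa9, by 0.66 (SE 0.16), Uqcrc2, by 0.51 (SE 0.13), and Sdhb, by 0.44 (SE 0.16), with adjusted p from 0.0022 to 0.038. At D12, 2 rose, Uqcr10 and Cox7a1, beside 27.4%, and 3 fell, beside 10.7%, again Uqcrc2, Sdhb and Ndufa9. This split became 5 and 3 after rescaling to a common total, 5 and 4 after quantile normalization and 13 and 3 after removing trends in length and GC, and the D7 split became 2 and 3 under the last of these. Uqcr10, a small subunit of complex III, rose by 0.75 (SE 0.28, adjusted p = 0.041), a call lost in 3 of the 4 fits that left out 1 library. These NanogWT counts rest on the D0 libraries that stood apart. Without replicate 1 of D0, 15 subunits rose and none fell by D12, and without replicate 2, 14 fell by D12 and 29 by D7.

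The change from D0 to D12 differed between the combinations in 5 subunits by the test of the difference, all larger in NanogBiD, beside 21.9% of all genes larger and 15.2% smaller. They were Cox7b2, Uqcrc2, Ndufa9, Sdha and Ndufa10. Cox7b2 entered the test only through the NanogBiD libraries of D12, so its place and direction in this count are no separate support. For Uqcrc2 the difference was 0.79 (SE 0.18, adjusted p = 0.0021), for Ndufa9 0.71 (SE 0.22, adjusted p = 0.017), for Sdha 0.67 (SE 0.19, adjusted p = 0.0097) and for Ndufa10, an accessory subunit of complex I, 0.65 (SE 0.25, adjusted p = 0.047). That of Sdha was lost without NanogWT D12 replicate 2, that of Ndufa9 in 4 of the 8 fits that left out 1 library and that of Ndufa10 in 6 of 8. Without NanogWT D0 replicate 1 there were 3 larger and 8 smaller, without NanogWT D0 replicate 2 there were 16 larger, and without NanogBiD D12 replicate 1 or NanogBiD D0 replicate 2 there were 3 larger. Other scalings gave calls on both sides, with 4 larger and 3 smaller after rescaling to a common total, 9 and 5 after quantile normalization and 9 and 8 after removing trends in length and GC.

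The tissue forms of complex IV were low in fibroblasts and followed separate courses. Cox7a1, the heart, muscle and brown fat form of subunit 7a, had 0.336 and 0.168 FPKM in NanogBiD and was listed at 0 in both NanogWT libraries at D0. It had 5.58 and 3.35 FPKM against 0.969 and 0.774 at D5, 3.13 and 0 against 1.28 and 0.712 at D10, and 9.99 and 3.95 against 1.86 and 1.73 at D12. NanogBiD was higher without overlap at D5 and D12, by 1.52 (SE 0.50, adjusted p = 0.043) and 1.40 (SE 0.50, adjusted p = 0.025), and overlapped with NanogWT at D10. The D5 call was lost without any 1 of the 4 libraries and the D12 call without NanogBiD replicate 1 or either NanogWT library, and both after rescaling to a common total. In NanogBiD it rose from D0 to D12 by 2.56 (SE 0.50, adjusted p = 0.00018). It was also called higher at D12 than at D0 in NanogWT (adjusted p = 0.024), where no fold is given because both D0 libraries were listed at 0, and the difference between these changes missed the threshold (adjusted p = 0.25). Its share of the sum of Cox7a1 and Cox7a2, the form of most tissues, was 7.7% and 14.7% in NanogBiD and 4.2% and 4.3% in NanogWT at D12, and 29.8% in mES, which had 30.5 FPKM.

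Cox6b2, the testis form of subunit 6b, was expressed in all libraries. It had 16.5 and 10.0 FPKM in NanogBiD and 22.7 and 5.54 in NanogWT at D0, and 46.2 and 29.4 against 38.0 and 19.7 at D12. MEF had 6.49 and 2.39 FPKM and mES 43.0. The rise in NanogBiD was 1.45 (SE 0.49, adjusted p = 0.016) and was lost without D12 replicate 1 or D0 replicate 2, whereas at D10 the levels were 51.1 and 56.7 FPKM in NanogWT and 32.8 and 24.6 in NanogBiD, a difference of -0.90 (SE 0.49) that missed the threshold (adjusted p = 0.13). Its share of the sum with Cox6b1 was 3.3% and 6.7% in MEF, 26.9% and 30.8% in NanogBiD and 17.0% and 23.5% in NanogWT at D12, and 20.8% in mES.

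Cox7b2, the testis form of subunit 7b, was listed at 0 in 24 of the 31 time-course libraries. It had 0.496 and 0.374 FPKM in NanogBiD at D10, when NanogWT was listed at 0, and 3.09 and 1.14 against 0 and 0.278 at D12. The D12 difference of 1.39 (SE 0.19, adjusted p = 4.4e-06) was carried by both NanogBiD libraries. Only these libraries reached 1 FPKM, so Cox7b2 entered the test through the group where it was high. Its p-value is therefore no separate support for the difference. Cox8b and Cox8c were listed at 0 in 30 of the 31 libraries.

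Ndufa4l2, a hypoxia-induced relative of Ndufa4 outside the rule, stayed at or under 1.46 FPKM in NanogWT. In NanogBiD it had 5.50 and 2.55 FPKM at D7, then 19.1 and 7.41 by D10, and the D12 libraries held 14.6 and 8.38, while mES had 46.3 beside 0.99 and 0.78 in MEF. The combinations differed by 3.61 (SE 0.37, adjusted p = 1.4e-07) at D10 and 3.31 (SE 0.37, adjusted p = 4.8e-07) at D12. Cyct, the testis form of cytochrome c, had 3.92 and 2.24 FPKM in NanogBiD at D12, when it differed by 1.89 (SE 0.14, adjusted p = 2.8e-09), and 5.71 in mES. Neither Ndufa4l2 nor Cyct reached 1 FPKM in 2 NanogWT libraries, so both entered the test only through NanogBiD, where they were high. The p-values of both genes are therefore no separate support.

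Markers of other cell types were counted at D12, beside 31.6% of all genes called higher and 19.1% lower. Of 12 muscle markers 6 were tested and 4 were higher in NanogBiD, with summed levels of 37.4 and 63.8 FPKM against 13.9 and 17.7 in NanogWT, 84.4 in mES and 47.0 and 116 in MEF. Ckm and Myf5 were listed at 0 in NanogBiD at D12. In the iPSC libraries, Mylpf alone had 143 to 265 FPKM beside summed levels of 146 to 280 for the 12 genes, so the sum can rest on 1 gene. Of 6 male germ cell markers 3 were tested, all higher in NanogBiD, with summed levels of 13.7 and 23.8 FPKM against 1.51 and 3.91. The spermatid genes Tnp1 and Acrv1 were listed at 0 in these NanogBiD libraries, whereas Prm1, also a spermatid gene, was above 0 in at least 1. Of 8 fat cell markers 3 were tested and 1 was higher, a share near that of all genes. Pluripotency markers moved the same way, and the part of any of these in the tissue forms was not tested.

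**Figure D4:**
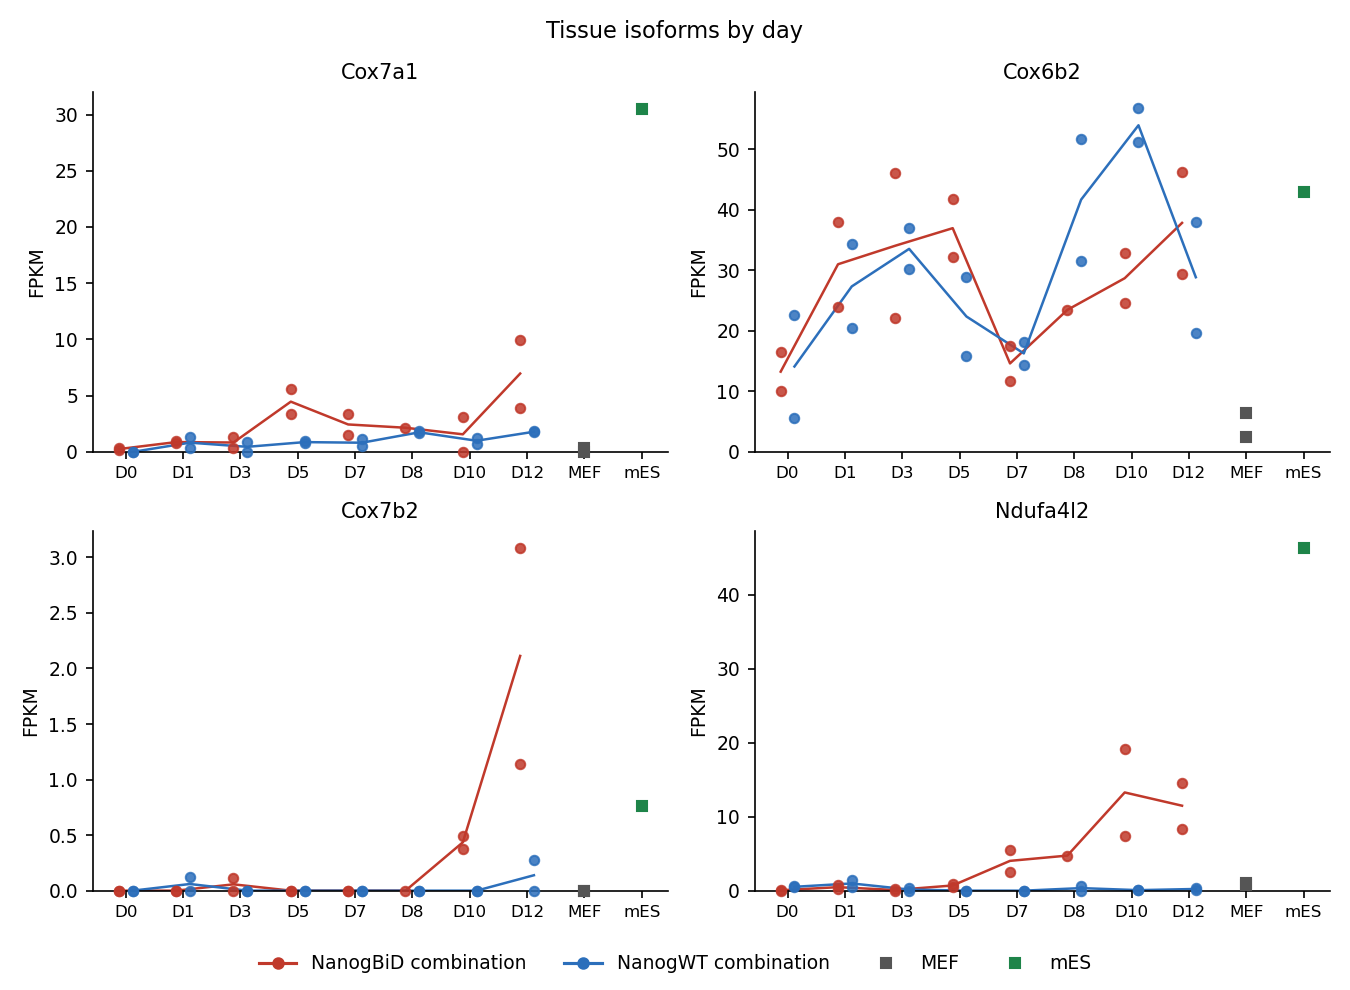
FPKM (y axis, linear from 0) of Cox7a1, Cox6b2, Cox7b2 and Ndufa4l2 by day, with 1 point per library and lines through the means of NanogBiD (red) and NanogWT (blue), and MEF and mES at the right. Cox7a1, Cox7b2 and Ndufa4l2 are higher in NanogBiD at D12, and Cox6b2 overlaps between the combinations.

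In iPSC clones most subunits were higher than in MEF. These libraries come from a second table of 106520 transcripts, in which 99 transcripts carried the 64 symbols and were summed. MEF and mES values of the 64 genes there were 1.24 to 1.33 times those of the first table at the median, so levels were compared within a table. The summed level in the 12 iPSC libraries was 1.49 times the MEF mean for complex I, 1.31 for complex II, 1.83 for complex III and 2.08 for complex IV. In all, 50 of 61 tested subunits were called higher, beside 41.2% of 13312 genes, and none lower, beside 30.2%. The median difference was 0.66 against 0.22 over all genes, and 15 subunits differed by at least 2-fold with a call, beside 21.9% of all genes. All 12 iPSC libraries lay above both MEF libraries in 37 subunits, beside 37.2% of genes tested, and below in 1, Cox6a2, beside 26.4%.

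By complex, 29 of 36 subunits were called in complex I, with a median of 0.61, 2 of 4 in complex II, 8 of 8 in complex III, with a median of 0.66, and 11 of 13 in complex IV, with a median of 1.12. In complex II the median was 0.41. Rescaling to a common total moved the median of all genes from 0.22 to 0.03 and gave 40 higher and 4 lower. Quantile normalization gave 39 and 3, and removing trends in length and GC gave 33 and 4. Without MEF replicate 2 the count was 32. One clone library, NanogBiD iPSC1 clone 9, held fibroblast markers at a summed 1564 FPKM, against 7107 and 7734 in MEF and 2.83 to 493 in the other iPSC libraries, and without it 51 subunits were called.

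The largest rises were in complex IV. Cox6b2 had 6.95 and 2.67 FPKM in MEF and 21.2 to 58.8, with a median of 34.7, in iPSC, a difference of 2.72 (SE 0.29, adjusted p = 3.7e-06). Cox7a1 had 0.369 and 0.473 FPKM in MEF and 4.37 to 14.1, with a median of 8.33, in iPSC, a difference of 2.72 (SE 0.28, adjusted p = 2.1e-06). For Cox5a the levels were 122 and 103 FPKM in MEF and 278 to 527 in iPSC, a difference of 1.71 (SE 0.17, adjusted p = 1.5e-06). No iPSC library overlapped with MEF in these 3 genes. Cox7c and Uqcr10, small subunits of complexes IV and III, followed at 1.45 (SE 0.19, adjusted p = 2.1e-05) and 1.38 (SE 0.18, adjusted p = 1.6e-05). In complex II, Sdhd was higher by 0.81 (SE 0.11, adjusted p = 2.3e-05) and Sdha by 0.56 (SE 0.10, adjusted p = 0.00035), and Sdhc at 0.26 (SE 0.14) missed the threshold (adjusted p = 0.12). Sdhb, which was higher in NanogBiD during the course, had a mean of 66.5 FPKM in iPSC and 70.7 in MEF.

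Between the clones of the combinations limma called no subunit and no gene, 0% of those tested, and 1 subunit and 227 genes had an unadjusted p under 0.05. Other scalings, pseudocounts and filters also called no subunit, and this does not show that the clones are equal. The subunit median was -0.08 against 0.01 over all genes. The mES library lay above all 12 iPSC libraries in 19 subunits, within their range in 45 and below in none. Cox6a2 and Cox8b, listed at 0 in mES and in iPSC, count as within. The share over all genes was not counted, and mES had 1 library. These counts therefore do not set the subunits apart from other genes. For Cox7a1 mES had 37.6 FPKM against at most 14.1 in iPSC, and for Ndufa9 107 against at most 88.0. Ndufa4l2 had 39.2 FPKM in mES and at most 2.41 in 11 iPSC libraries, with 13.4 in NanogWT iPSC1 clone 2.

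**Figure D5:**
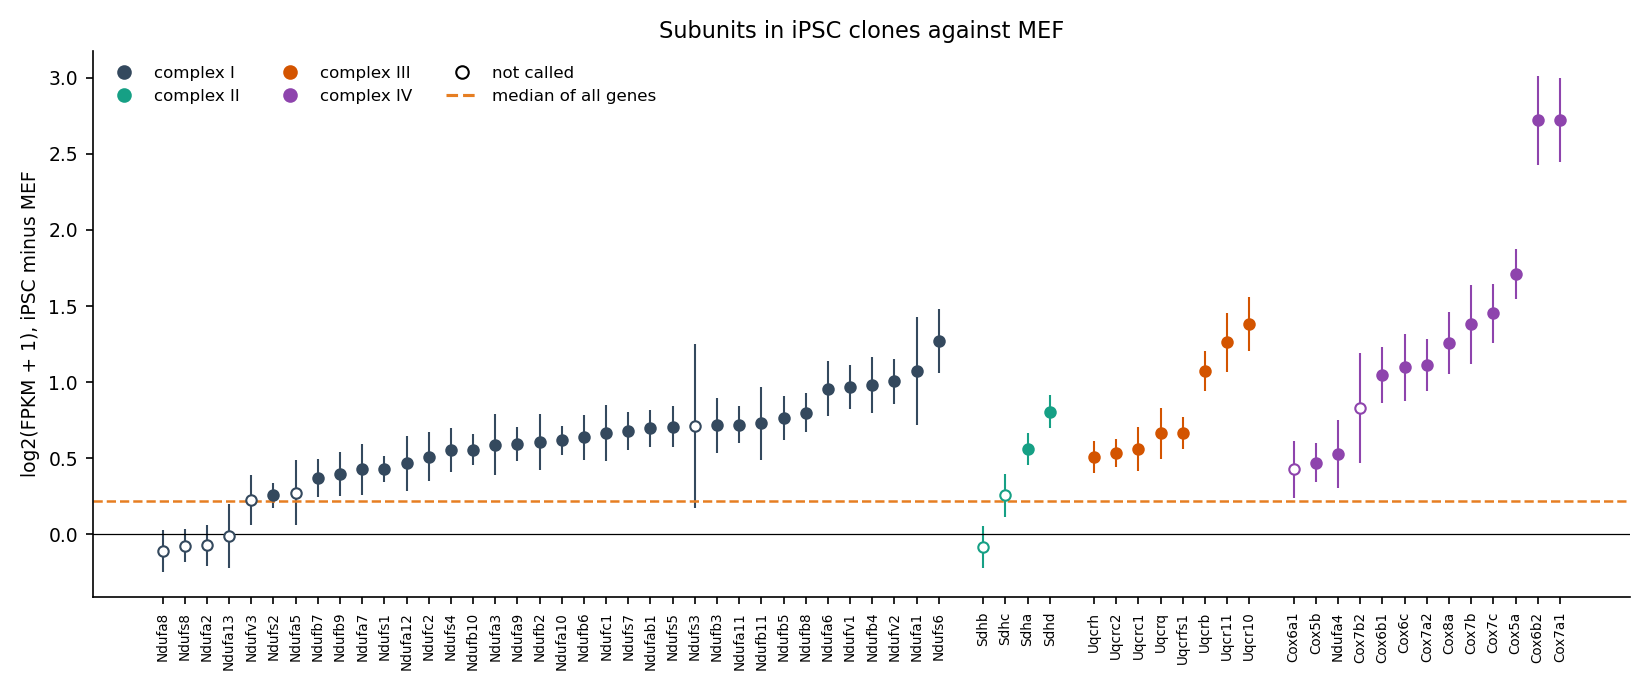
Difference of each of the 61 tested subunits between iPSC and MEF, in log2(FPKM + 1) (y axis), grouped and coloured by complex, with bars of 1 SE, open points for subunits not called and the median of all genes as a dashed line at 0.22. Points of complex IV reach 2.72 (Cox6b2 and Cox7a1), and Sdhb and 4 complex I subunits lie under 0.

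Other genes of the pathway were counted from lists, to be read against 9.05% of all genes called higher and 7.31% lower at D5, and 31.6% and 19.1% at D12. Of the 6 tested other subunits and electron carriers, 1 was called higher in NanogBiD at D5 and 3 at D12, none lower. Cyc1, the cytochrome that passes electrons out of complex III, had 114 and 103 FPKM in NanogBiD and 56.1 and 56.4 in NanogWT at D5, a difference of 0.93 (SE 0.19, adjusted p = 0.0015), and 0.74 (SE 0.19, adjusted p = 0.0027) at D12. Of 20 ATP synthase subunits, 2 were higher at D5, Atp5b and Atp5a1 of the catalytic head, by 0.61 (SE 0.18, adjusted p = 0.021) and 0.47 (SE 0.13, adjusted p = 0.020). At D12, 4 were higher, with Atp5a1 at 0.80 (SE 0.13, adjusted p = 5.4e-05) and Atp5b at 0.77 (SE 0.18, adjusted p = 0.0012), and 1 lower, Atp5l, at -0.66 (SE 0.24, adjusted p = 0.027). The calls of Atp5a1 and Atp5b at D5 and of Atp5l were each lost in at least 3 of the 4 fits that left out 1 library.

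Of 40 respiratory chain assembly factors, 3 were higher and 1 lower at D5, and 11 higher and 3 lower at D12, which are shares below those of all genes. Nubpl, which delivers iron-sulphur clusters to complex I, differed by 1.2 (SE 0.18, adjusted p = 1.8e-05) and Ndufaf6, a complex I assembly factor, by 1.15 (SE 0.21, adjusted p = 0.00014). Of 19 regulators of mitochondrial biogenesis, 13 were higher and 1 lower at D12. Esrrb, an orphan nuclear receptor that is also a pluripotency marker, differed by 3.05 (SE 0.28, adjusted p = 4.2e-08), Pprc1, a coactivator, by 1.17 (SE 0.17, adjusted p = 8.5e-06), and Tfb1m and Tfb2m, mitochondrial transcription factor relatives, by 1.14 (SE 0.20, adjusted p = 7.8e-05) and -0.75 (SE 0.18, adjusted p = 0.0020).

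Of the 13 mtDNA-encoded subunits none was called by limma from D0 to D7, and none had an unadjusted p under 0.05 on those days. At D3, 12 of them were positive, with a median of 0.12, beside a median of 0.38 for the nuclear subunits, and at D5 none was positive, with a median of -0.33 beside 0.51. At D12, 6 were lower in NanogBiD and none higher, beside 19.1% and 31.6% of all genes, with a median of -0.76. ND4L and ND2, complex I subunits made in the mitochondrion, differed by -1.14 (SE 0.46, adjusted p = 0.044) and -1.06 (SE 0.40, adjusted p = 0.033). Both calls were lost without NanogBiD replicate 1 or either NanogWT library. From D0 to D12 in NanogBiD, 9 of the 13 fell, beside 18.9% of all genes, with a median of -0.98. In mES, with 1 library, the 13 were low, unlike the nuclear subunits. Their sum was 11234 FPKM in mES against 25799 and 33559 in MEF. Beside the iPSC libraries it was 5520 FPKM in mES, 16243 to 31167 in iPSC and 13386 and 18015 in MEF. In iPSC against MEF, 5 of 13 mtDNA-encoded subunits, 12 of 18 ATP synthase subunits, 20 of 40 assembly factors and 10 of 17 regulators were called higher, and 0, 0, 3 and 1 lower, beside 41.2% of all genes higher and 30.2% lower.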

How the data were processed

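Libraries of mRNA were sequenced from 46 mouse samples. The authors trimmed reads with Trim Galore 0.6.4, aligned them with HISAT2 2.2.1 and quantified them with StringTie 2.2.1 on mm10, per the submitters' processing notes, and deposited FPKM per gene for the 31 time-course, MEF and mES libraries and FPKM per transcript for iPSC, MEF and mES. Raw counts were not used here, so depth is known only in relative terms, from the whole-number steps of low FPKM values in 1818 genes. The annotation and strand setting are not given in the sources used here.

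Transcript FPKM were summed by symbol. Genes at 1 FPKM or more in at least 2 libraries were kept, and log2(FPKM + 1) was fitted by limma 3.58.1 (R 4.3.3) with a trended prior, with 1 mean per combination and day (31 libraries in 16 groups), or over 12 iPSC and 2 MEF libraries in the other table, with the 4 iPSC groups (iPSC1 and iPSC2 of each combination) weighted equally. The fold changes on this scale understate the change of low genes. The call was a Benjamini-Hochberg adjusted p under 0.05 over all genes tested. Tables were handled with pandas 2.3.3 and scipy 1.17.1 under Python 3.11.15, and plots drawn with matplotlib 3.10.9.

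The subunits and gene lists were chosen with earlier results of these data known. Genes named were the tissue form pairs, the Sdh, Uqcrc1, Uqcrc2 and Uqcrfs1 subunits, up to 5 of the largest called rises and falls per comparison, and up to 4 called genes per other list. Ndufa9 at D5 and in mES was added after their values were seen. Tested on simulated data, the fit recovered 66% of genes changed by a log2 of 1 and 98% by 2 at D5 (16842 genes), and 73% and 96% between iPSC and MEF (13312 genes). In each, 10 unchanged genes were also called. The simulated noise was independent between genes, and the changed genes were drawn from all but the low ones. The rates were therefore not measured for the subunits. Alternatives were a common library total (TPM), quantile normalization, removal of length and GC trends, a pseudocount of 0.1, no filter and a minimum log2 difference of 1. Others were a fit of only the groups compared, a replicate block, averaging the NanogWT iPSC1 libraries labelled 1# and 1#-2, and leaving out each library. The labels do not say whether 1# and 1#-2 are the same clone.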

Additional observations from a re-analysis of the deposited data

Results flagged for a closer look

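Among the iPSC libraries, a test for a sample far from the rest of its group picked out 6 values, 3 of them in 2 groupings, and chance flags about 1 in 20 groups. The complex III sum of NanogWT iPSC1 clone 2 was 922.76 FPKM, above the other libraries of that group. The same library had 13.378 FPKM of Ndufa4l2, the hypoxia-induced relative of Ndufa4. Cox4i2, the lung and hypoxia form of subunit 4, had 0.878 FPKM in NanogWT iPSC1 clone 3 and 0.478 in NanogBiD iPSC2 clone 1. Cox6b2 reached 58.769 FPKM in NanogBiD iPSC1 clone 8, and Cox7b2 reached 3.069 FPKM in the NanogWT iPSC1 library labelled 1#-2.

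The change from D0 to D12 differed between the combinations, by limma's test of the difference, in Cox7b2 (1.3875), Uqcrc2 (0.7935), Ndufa9 (0.709), Sdha (0.6703) and Ndufa10 (0.6472), each larger in NanogBiD on the log2 scale. These were 5 of 61 subunits, a share below that of all genes, of which 21.9% were called larger and 15.2% smaller. Other scalings also called subunits smaller, 3 after rescaling to a common total, 5 after quantile normalization and 8 after removing trends in length and GC. Cox7b2 was tested only because the NanogBiD libraries of D12 passed the filter on low values.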

How the results depend on the processing

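The number of subunits called between the combinations at D10, and between iPSC and MEF, stayed within 1.5 times under other scalings, pseudocounts and filters. Other counts moved, and the causes were not tested. Quantile normalization gave 9 at D3, 19 at D12, 9 for D12 against D0 in NanogWT and 14 for the difference in change. Without a filter on low values there were 2 at D3, 4 at D5, 2 for D7 against D0 in NanogBiD and 3 for D12 against D0 in NanogWT. With length and GC trends removed there were 11 at D3, 11 at D5, 21 at D12, 23 and 16 for D12 against D0 in NanogBiD and NanogWT and 17 for the difference in change. It also turned 3 differences to the other side of 0, those of Cox5b, iPSC against MEF, at -0.001, Ndufc2, iPSC against MEF, at -0.0019, and Uqcrh, iPSC against MEF, at -0.0174. Rescaling to a common total gave 3 for D7 and 8 for D12 against D0 in NanogWT, and put the complex sums relative to MEF at 1.12 (complex II) and 1.56 (complex III) in iPSC and, in mES, at 1.29 and 1.89 in the gene table and 1.24 and 1.91 in the transcript table. A fit of only the groups compared gave 0 at D3, 20 at D5, 1 at D7, 37 at D10, 22 for D12 against D0 in NanogBiD, 0 for D7 and 1 for D12 against D0 in NanogWT and 1 for the difference in change. A minimum log2 difference of 1 left 1 at D3, 1 at D5, 0 at D7, 4 at D10, 3 at D12, 1 and 5 for D7 and D12 against D0 in NanogBiD, 0 and 1 in NanogWT, 1 for the difference in change and 15 between iPSC and MEF.

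Leaving out 1 library gave 0 to 5 calls at D0, 0 to 0 at D1, 1 to 10 at D3, 0 to 8 at D5, 2 to 10 at D7, 8 to 12 at D10 and 6 to 9 at D12. It gave 1 to 9 and 6 to 13 for D7 and D12 against D0 in NanogBiD, 3 to 29 and 3 to 15 in NanogWT, 3 to 16 for the difference in change, 32 to 52 between iPSC and MEF and 0 to 0 between the iPSC of the combinations. At D0 the 5 calls, all lower in NanogBiD, came without NanogWT replicate 2.

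The deviations of same-numbered libraries correlated over all genes at -0.0647 (D3) to 0.395 (D7), with 0.227 at D0. Pairing by replicate number was therefore not the same on each day. With a replicate block the counts were 0 at D0 and D1, 5 at D3, 9 at D5, 7 at D7, 19 at D10, 12 at D12, 4 and 14 for D7 and D12 against D0 in NanogBiD, 5 and 7 in NanogWT and 5 for the difference in change, and of the named results only Sdhd at D12 crossed the threshold. For iPSC against MEF no paired analysis was possible, because these samples share no replicate. Only relative depth was known.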
